A study of Mus musculus with 79 samples.

Results

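Bile acid synthesis and transport were followed through 10 genes in mouse liver. They were chosen by name for their known roles, with earlier results of these data known. The enzymes were Cyp7a1, Cyp8b1, Cyp27a1 and Cyp7b1, and the nuclear receptors Nr0b2 and Nr1h4. The uptake transporters were Slc10a1, Slco1a1 and Slco1b2, and the export pump was Abcb11. All 10 were listed in each of the 3 liver count tables, which held 11671, 10992 and 10811 genes (11936 in any of them). RNA was sequenced from whole livers of C57BL/6 mice, 3 months old, that breathed either 6% oxygen (the rest nitrogen) or 21% oxygen (synthetic air) for 4 h in a sealed cage flushed with gas, and were killed at once afterwards. The study asked how this acute low oxygen acts at different times of day. For 2 weeks beforehand all mice lived under a 12 h/12 h light-dark cycle. In the light-dark arm (LD), wild-type mice were treated at ZT16-20 (hours after lights on, thus in the dark) or at ZT4-8 (in the light). In the constant-darkness arm (DD), mice had been in the dark for 2 days, and were treated at circadian time CT16-20 or CT4-8. The DD mice were either knockouts of both Per1 and Per2, 2 repressors of the circadian clock (KO), or wild-type (WT). The labels do not say which part of either gene was removed. Each of the 12 liver groups held 4 mice, 1 library each, except KO mice in 6% oxygen at CT16-20 with 3. These 47 libraries are part of a series of 79 samples, and they are called A to D within each group, as in their titles.

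Bile acids are made from cholesterol in the hepatocyte. Cyp7a1 catalyses the first and rate-limiting step of the classical pathway, Cyp8b1 directs the product towards cholic acid, and Cyp27a1 and Cyp7b1 carry the alternative pathway. Bile acids bind the receptor FXR, encoded by Nr1h4, which induces Nr0b2. Nr0b2 encodes SHP, a receptor without a DNA-binding domain that represses Cyp7a1 and Cyp8b1. FXR also induces Abcb11, the bile salt export pump of the canalicular membrane. Slc10a1 (NTCP), Slco1a1 (OATP1A1) and Slco1b2 (OATP1B2) bring bile acids back in from the blood. Cyp7a1 is known for a daily rhythm.

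Promoters of 3 genes whose levels moved are shown because they hold letters that match sites known to be bound by the receptors of this pathway. RefSeq windows of 300 bases (250 before to 50 after the start, mm10) were matched by symbol for 8 of the 10 genes, in 9 windows. These windows were searched on both strands for 6 motifs. Cyp7a1 and Cyp7b1 had no window, so their promoters were not searched. Capitals mark, in Nr0b2, an E-box (CACGTG, first base at -195 from the start site) and the pair of TCAAGG matches at -68 and -35, an extended half-site of the kind bound by LRH-1. In Abcb11 and Slco1b2, capitals mark AGGNCANTGNCCT, an inverted repeat with 1 spacer base of the kind bound by FXR with its partner RXR, at -63 and -88. The nuclear receptor half-site AGGTCA at -56 and -81 lies inside these repeats, on the opposite strand.
Nr0b2 (chr4:133553126-133553425, plus strand): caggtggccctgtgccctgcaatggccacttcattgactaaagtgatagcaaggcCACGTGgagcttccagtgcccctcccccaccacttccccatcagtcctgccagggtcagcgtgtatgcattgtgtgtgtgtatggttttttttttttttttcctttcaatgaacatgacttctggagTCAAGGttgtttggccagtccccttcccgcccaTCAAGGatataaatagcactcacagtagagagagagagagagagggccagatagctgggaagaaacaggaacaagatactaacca
Abcb11 (chr2:69342567-69342866, minus strand): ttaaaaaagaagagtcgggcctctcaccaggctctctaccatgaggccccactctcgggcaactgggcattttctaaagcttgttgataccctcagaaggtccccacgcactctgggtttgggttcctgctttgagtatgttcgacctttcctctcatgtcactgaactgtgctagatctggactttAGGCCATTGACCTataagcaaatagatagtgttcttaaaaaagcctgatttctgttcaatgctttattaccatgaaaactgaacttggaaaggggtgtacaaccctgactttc
Slco1b2 (chr6:141629268-141629567, plus strand): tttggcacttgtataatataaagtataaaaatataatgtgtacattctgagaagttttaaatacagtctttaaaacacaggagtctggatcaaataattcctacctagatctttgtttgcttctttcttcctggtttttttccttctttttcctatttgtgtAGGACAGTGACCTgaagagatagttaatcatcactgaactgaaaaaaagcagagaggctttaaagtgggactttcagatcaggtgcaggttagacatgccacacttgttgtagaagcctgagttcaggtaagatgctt

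Among 32851 RefSeq promoter windows of the same length, 0.0883% held AGGNCANTGNCCT, against 2 of the 9 windows of these genes. CACGTG was in 7.15% of all windows and in 1 of the 9 (Nr0b2). TCAAGG was in 14.4% and in 1 of the 9 (Nr0b2), and AGGTCA in 16.3% and in 5 of the 9. The D-box TTATGNAA was in 3.38% and in 2 of the 9 (Cyp27a1 and Slc10a1). ACGTG, the core bound by hypoxia-inducible factors, which any CACGTG also contains, was in 19.6% and in 2 of the 9 (Nr0b2 and Cyp8b1). A match is a description of letters and not a measured site. The genes were chosen by name for roles in this pathway, so these shares are not a test of enrichment.

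The libraries held 1.44 to 6.74 M (mega) counts, with a median of 2.49 M. LD libraries were deeper (3.01 to 6.74 M) than KO (1.44 to 3.77 M) and WT DD libraries (1.65 to 2.97 M). In the KO arm at CT16-20, all 6% libraries (2.80 to 3.77 M) were deeper than all 21% libraries (1.44 to 2.02 M). Hepatocyte markers (Alb, Apoa1, Ttr, Serpina1a and Fgb) were all listed and summed to 60087 to 158646 CPM (counts scaled to the library's size). One library stood apart. WT library A at CT4-8 in 21% oxygen deviated from the rest of its group by an SD of 0.811 on the log2 scale over 6103 genes, against 0.275 to 0.539 for the other libraries over 5748 to 6112 genes of their tables. Calls of the 10 genes that change without it are given beside the results. On the joint scaling, Per1 in air had 24.0 to 36.5 CPM in KO and 33.1 to 55.3 CPM in WT livers at CT16-20, and 20.0 to 35.6 CPM in KO and 16.1 to 38.4 CPM in WT livers at CT4-8. Per2 in air had 4.65 to 11.5 CPM in KO and 10.4 to 17.3 CPM in WT livers at CT16-20, and 4.88 to 11.3 CPM in KO and 5.30 to 9.95 CPM in WT livers at CT4-8. All 4 ranges overlapped. In 6% oxygen, Per1 had 15.5 to 31.5 CPM in KO and 61.1 to 76.3 CPM in WT livers at CT16-20, and 15.0 to 21.3 CPM in KO and 45.3 to 84.7 CPM in WT livers at CT4-8. Per2 in 6% oxygen had 20.3 to 31.8 CPM in KO and 7.85 to 29.1 CPM in WT livers at CT16-20, and 19.1 to 31.2 CPM in KO and 2.94 to 10.8 CPM in WT livers at CT4-8. Because the deleted part is not given, these values check nothing about the labels. In whole liver, fewer cells of a type and less RNA per cell cannot be told apart.

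Levels are CPM after TMM scaling, with each table scaled on its own and KO set against WT on a joint scaling. Changes are log2 fold changes ± SE from edgeR's quasi-likelihood test, and adjusted p-values (Benjamini-Hochberg) run over all genes of a fit, with 0.05 as the threshold. The design text calls the replicates separate mice.

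Low oxygen changed between 0 and 5 of the 10 genes in each of 6 comparisons. In LD livers at ZT16-20, 3 of the 10 genes fell and none rose, in a comparison where 20.3% of 9451 genes passed the threshold (9.98% higher, 10.3% lower). At ZT4-8 in LD, 2 rose and 3 fell, where 9.64% of genes passed (5.43% higher, 4.21% lower). In KO livers at CT16-20, 1 rose and none fell, where 4.51% of 8520 genes passed (2.39% higher, 2.11% lower). At CT4-8 in KO livers, 2 fell and none rose, where 5.59% passed (2.83% higher, 2.76% lower). In WT DD livers at CT16-20, 0 of the 10 passed edgeR's or DESeq2's test, with 2 at an unadjusted p under 0.05, where 9.83% of 8507 genes passed in edgeR (5.28% higher, 4.55% lower). Without the WT library that stood apart, 1358 genes passed there in place of 836, and 1 of the 10 did (Abcb11). At CT4-8 in WT DD livers, 2 fell and none rose, where 11.8% passed (5.7% higher, 6.07% lower). The median log2 change of the 10 genes was -0.40 at ZT16-20 and -0.01 at ZT4-8 in LD, 0.38 at CT16-20 and -0.31 at CT4-8 in KO, and -0.13 at CT16-20 and -0.20 at CT4-8 in WT DD livers. The median of all genes lay between -0.02 and 0.01 in these 6 comparisons. With 10 genes, the shares passing rest on few members, and each gene is given below.

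**Figure D1:**
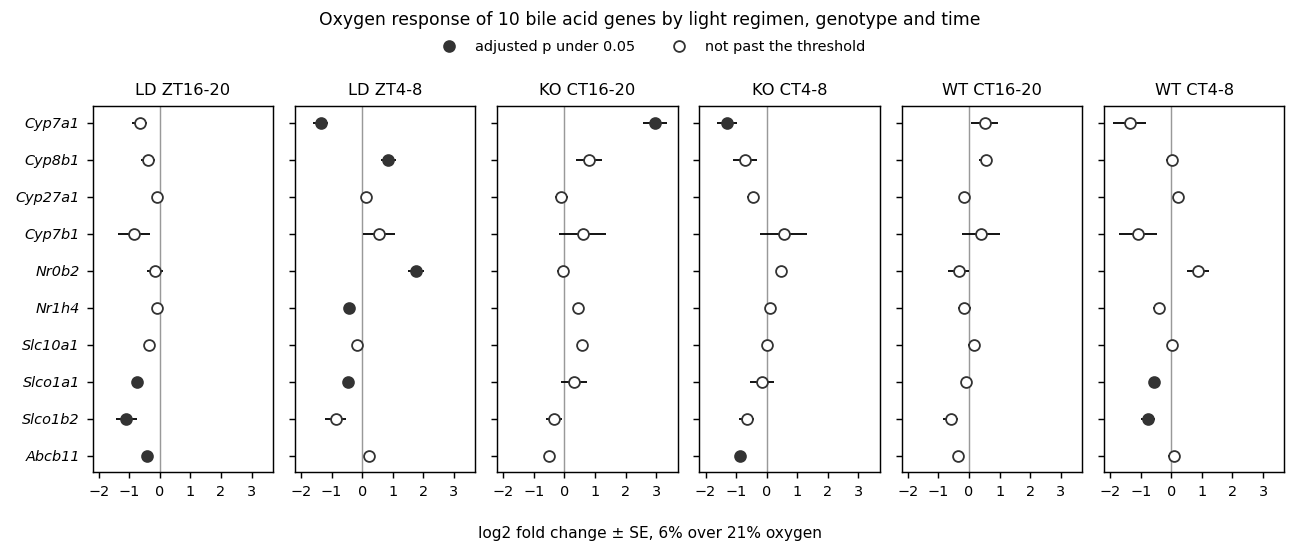
Log2 fold change of 6% over 21% oxygen (x axis, ± SE) for each of the 10 genes (rows) in 6 comparisons (panels), with filled points past the adjusted p threshold. Cyp7a1 lay at -1.36 in LD at ZT4-8 and at 2.98 in KO livers at CT16-20, and Slco1b2 was below 0 in all 6 panels.

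Cyp7a1 (ENSMUSG00000028240, chr4:6265612-6275633, minus strand) showed the widest spread of responses among the 10 genes. In LD livers at ZT16-20 it had 34.5, 43.8, 34.5 and 29.9 CPM in 6% oxygen, against 68.3, 64.5, 45.0 and 48.4 CPM in 21% oxygen. No values were shared between the gases, but the change of -0.66 ± 0.25 missed the threshold with all 16 libraries in the fit (adjusted p = 0.067). It passed in DESeq2 (0.048), in edgeR with only the libraries compared (0.016), and without ZT4-8 library A or B in 6% or D in 21% oxygen (0.033 to 0.049). At ZT4-8 it had 14.3, 37.0, 18.5 and 30.9 CPM in 6% oxygen, against 62.3, 82.4, 67.4 and 43.8 CPM in 21% oxygen. Every low-oxygen liver lay below every liver in air, and the fall of -1.36 ± 0.25 passed (adjusted p = 0.0014), with each of the 16 libraries left out in turn (-1.59 to -1.15). The change at ZT16-20 minus that at ZT4-8 was 0.70 ± 0.35 (adjusted p = 0.40).

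In KO livers Cyp7a1 moved in opposite directions at the 2 circadian times. At CT16-20 it had 96.1, 49.2 and 72.2 CPM in 6% oxygen, against 5.95, 13.2, 9.80 and 7.91 CPM in 21% oxygen. The lowest liver in 6% oxygen was above the highest in air, and the rise was 2.98 ± 0.39 (adjusted p = 0.00037), past the threshold with each of the 15 libraries left out (2.72 to 3.19). The raw counts behind it were 195 to 356 in 6% and 9 to 19 in 21% oxygen. Summed hepatocyte markers were lower in the same contrast (60087 to 67670 CPM in 6% against 82591 to 109309 CPM in 21% oxygen, no overlap), and their part in the result was not tested. At CT4-8 Cyp7a1 had 21.3, 15.5, 32.2 and 34.7 CPM in 6% oxygen, against 85.8, 28.8, 62.7 and 74.7 CPM in 21% oxygen. The groups overlapped through library B in air, and the fall was -1.29 ± 0.33 (adjusted p = 0.030). This call was lost without 6% library A, B or C or 21% library A, C or D (adjusted p 0.050 to 0.089). With only the libraries compared it was lost too (adjusted p = 0.064).

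The change in KO livers at CT16-20 minus that at CT4-8 was 4.26 ± 0.51 (adjusted p = 0.0043). Cyp7a1 was the only gene of 8520 to pass in that comparison (0.0117%), and it passed under every alternative and with each library left out (4.00 to 4.50). Over those settings 1 to 24 genes passed (24 in DESeq2). In WT DD livers the corresponding difference was 1.87 ± 0.70 (adjusted p = 0.22), where 1.62% of 8507 genes passed, and 0 of the 10 genes did in edgeR or DESeq2 (2 at an unadjusted p under 0.05). The oxygen response in KO minus that in WT was 2.46 ± 0.68 at CT16-20 and did not pass in edgeR (adjusted p = 0.17, while DESeq2 gave 0.023). There 4 of 9011 genes passed in edgeR (0.0444%), and 0 of the 10 (2 at an unadjusted p under 0.05, 1 in DESeq2). The count over all genes ran from 2 to 18 with 1 library left out (18 without the WT library that stood apart) and was 37 in DESeq2. At CT4-8 the KO minus WT difference for Cyp7a1 was 0.07 ± 0.65 (adjusted p = 0.97).

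The KO libraries in air at CT16-20 had the lowest mean Cyp7a1 of the 12 groups, across tables scaled separately, at 9.22 ± 3.10 CPM (SD, n = 4). Against KO livers in air at CT4-8 (63.0 ± 24.7 CPM, n = 4), they were lower by -2.77 ± 0.39 (adjusted p = 0.026). Cyp7a1 and Gstm1 were the only genes past the threshold there (0.0235% of 8520, and 0 to 21 genes over the alternatives). That call was lost without any of the 4 libraries at CT16-20 in air, without library A, C or D at CT4-8 in air, or without 6% library C at CT16-20 (adjusted p 0.056 to 0.23). Against WT livers in air at CT16-20 (48.5 ± 13.0 CPM), KO livers had 9.28 ± 3.12 CPM on the joint scaling (SD, n = 4 each), a difference of -2.39 ± 0.52 (adjusted p = 0.015). It was lost without KO library C or WT library C of these groups (adjusted p 0.056 and 0.054), and 2.00% of 9011 genes passed. Those 180 genes became 305 without the WT library that stood apart, and 78 to 305 over all leave-outs. These comparisons, and the response at CT16-20, share the same 4 KO libraries. Each genotype has its own table, so genotype and table cannot be told apart.

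In WT DD livers Cyp7a1 varied widely between mice. At CT16-20 it had 88.6, 89.6, 43.2 and 54.3 CPM in 6% oxygen, against 56.6, 31.9, 61.7 and 43.8 CPM in 21% oxygen, and the change of 0.51 ± 0.45 did not pass (adjusted p = 0.55). At CT4-8 it had 9.34, 21.0, 14.5 and 13.2 CPM in 6% oxygen, against 14.9, 33.8, 84.8 and 15.4 CPM in 21% oxygen. The groups overlapped, 1 liver in air (library C) was far above the rest, and the change of -1.36 ± 0.53 did not pass (adjusted p = 0.12). It was -1.58 without library A in air (adjusted p = 0.10) and -0.55 without library C in air (adjusted p = 0.37). Time of day in air gave -0.18 ± 0.24 in LD (ZT16-20 against ZT4-8, adjusted p = 0.73) and 0.38 ± 0.47 in WT DD livers (CT16-20 against CT4-8, adjusted p = 0.71).

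**Figure D2:**
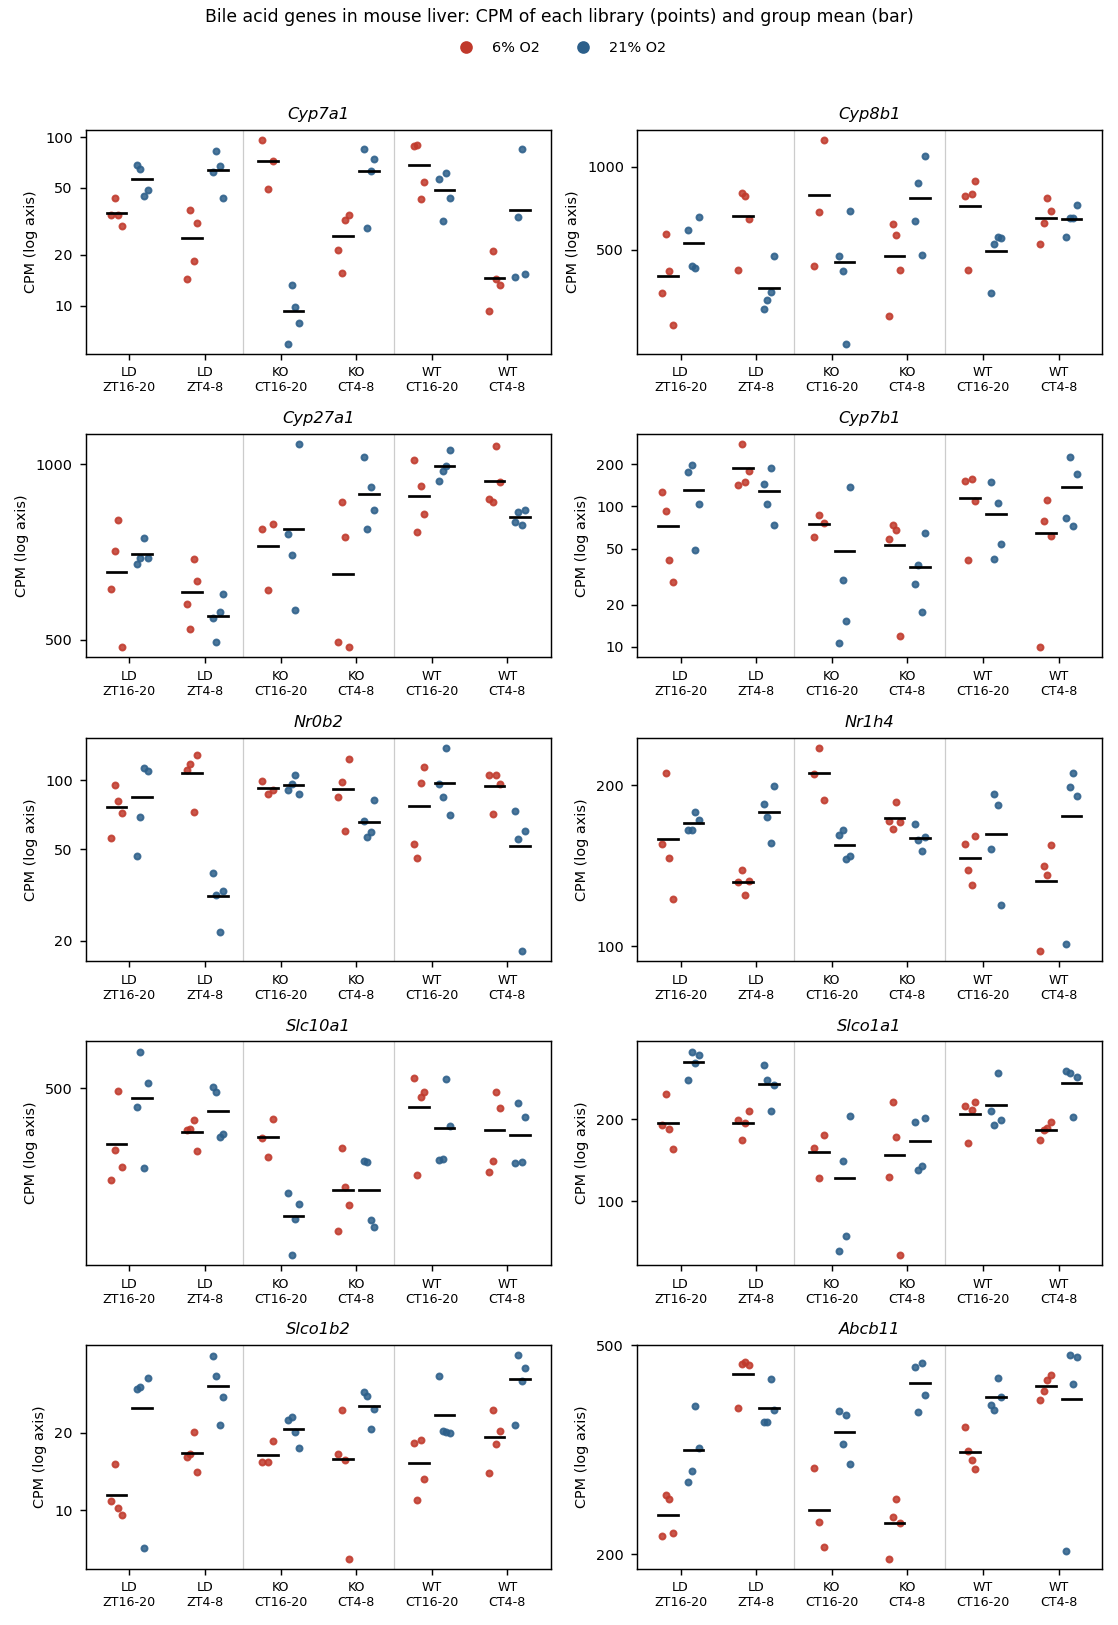
CPM of each library (points, log axis) for the 10 genes by arm and time, 6% oxygen left of 21% oxygen, with group means as bars (n = 4, and 3 for KO CT16-20 in 6% oxygen). The 4 KO livers in air at CT16-20 lie between 5.95 and 13.2 CPM of Cyp7a1, below the 3 KO livers in 6% oxygen at 49.2 to 96.1 CPM.

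Cyp8b1 (ENSMUSG00000050445, chr9:121914356-121916305, minus strand) rose in LD livers at ZT4-8. It had 424, 799, 782 and 647 CPM in 6% oxygen, against 304, 328, 352 and 474 CPM in 21% oxygen. Only 6% library A lay within the range of the livers in air, and the rise was 0.86 ± 0.23 (adjusted p = 0.024). The call was lost without 6% library B, C or D or 21% library A, B or C (adjusted p 0.055 to 0.085). At ZT16-20 it averaged 401 ± 128 CPM in 6% and 529 ± 114 CPM in 21% oxygen (SD, n = 4 each), a change of -0.40 ± 0.23 that did not pass (adjusted p = 0.25). The difference between the LD times was -1.26 ± 0.33 and missed the threshold in edgeR (adjusted p = 0.057), not in DESeq2 (0.0077), and it passed without ZT16-20 library B in 6% oxygen or ZT4-8 library A in 6% or D in 21% oxygen (0.012 to 0.036). Its DD changes did not pass either, at 0.80 ± 0.42 in KO at CT16-20 (adjusted p = 0.34), -0.70 ± 0.39 in KO at CT4-8 (0.36), 0.54 ± 0.20 in WT at CT16-20 (0.090) and 0.01 ± 0.20 in WT at CT4-8 (0.98). Without library B in 6% oxygen, the WT change at CT16-20 passed, at 0.72 (adjusted p = 0.013). Cyp7a1 and Cyp8b1 thus had opposite signs in LD at ZT4-8, where both passed.

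Cyp27a1 (ENSMUSG00000026170, chr1:74713574-74737892, plus strand), the mitochondrial sterol 27-hydroxylase, passed in 0 of the 16 comparisons in edgeR or DESeq2, with an unadjusted p under 0.05 in 4 in edgeR. Its oxygen changes ran from -0.45 to 0.21. The change of -0.45 ± 0.21 was in KO livers at CT4-8 (adjusted p = 0.23), where it had 495, 863, 750 and 486 CPM in 6% oxygen, against 1029, 775, 914 and 834 CPM in 21% oxygen. Libraries A and D in 6% oxygen were below all the others. Without 6% library B the KO minus WT difference of response at CT4-8 passed (-0.83, adjusted p = 0.043). In air, all 4 livers at ZT16-20 (673 to 746 CPM) were above all 4 at ZT4-8 (495 to 599 CPM), yet the difference of 0.35 ± 0.13 did not pass (adjusted p = 0.14).

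Cyp7b1 (ENSMUSG00000039519, chr3:18071950-18243338, minus strand), the oxysterol 7-alpha-hydroxylase, passed in 0 of the 16 comparisons in edgeR or DESeq2, with an unadjusted p under 0.05 in 1, and had the largest standard errors of the 10 genes, 0.51 to 0.78 for the oxygen changes. Its 6 oxygen changes ran from -1.09 to 0.59, the last in KO livers at CT16-20. There library D in air decided the value: without it the change was 2.02 (adjusted p = 0.11), and the KO against WT difference in air at CT16-20 was -2.27 (adjusted p = 0.13) in place of -0.81 (adjusted p = 0.66). Single livers within a group differed widely: KO livers in air at CT16-20 had 10.6, 29.9, 15.2 and 138 CPM, and WT livers in 6% oxygen at CT4-8 had 9.92, 78.7, 110 and 61.4 CPM. In air at CT4-8, KO livers had 37.1 ± 20.2 CPM and WT livers 137 ± 72 CPM on the joint scaling (SD, n = 4 each), without overlap, at -1.90 ± 0.72 (adjusted p = 0.14, and 0.044 with only the libraries compared). Over all 47 libraries, after group means were removed, the genes most like Cyp7b1 were Hsd3b5 (r = 0.78), Sdr9c7 (0.76) and Cyp2d9 (0.74) among 5509 genes. This pattern was looked for after the spread of Cyp7b1 was seen, and libraries share depth and preparation.

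Nr0b2 (ENSMUSG00000037583, chr4:133553376-133556536, plus strand), the repressor whose promoter is shown above, rose with low oxygen in LD livers at ZT4-8. At ZT16-20 it had 56.2, 95.3, 81.6 and 72.1 CPM in 6% oxygen, against 46.8, 68.9, 113 and 109 CPM in 21% oxygen. These groups overlapped, and the change was -0.16 ± 0.26 (adjusted p = 0.71). At ZT4-8 it had 111, 118, 72.7 and 129 CPM in 6% oxygen, against 39.5, 31.5, 21.9 and 32.9 CPM in 21% oxygen. All livers in 6% oxygen were above all livers in air, and the rise was 1.77 ± 0.27 (adjusted p = 0.00028), past the threshold with each library left out (1.64 to 1.92).

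The levels of Nr0b2 at ZT4-8 in 6% oxygen overlapped with those at ZT16-20 in either gas. In air it was higher at ZT16-20 (84.6 ± 32.3 CPM) than at ZT4-8 (31.5 ± 7.2 CPM; SD, n = 4 each), by 1.43 ± 0.27 (adjusted p = 0.0043). This was the only call among the 10 genes for time of day in LD air, where 5.91% of 9451 genes passed. The oxygen change at ZT16-20 minus that at ZT4-8 was -1.93 ± 0.37 (adjusted p = 0.0085), again the only call among the 10, where 2.06% of genes passed. DESeq2 added Cyp8b1 and Abcb11 there. Both Nr0b2 calls held with each of the 16 libraries left out, and they share the libraries in air.

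In the DD arm no Nr0b2 change passed with all libraries. In KO livers it averaged 92.4 ± 6.2 CPM in 6% (n = 3) and 95.0 ± 8.2 CPM in 21% oxygen (SD, n = 4) at CT16-20, and 91.6 ± 26.4 CPM in 6% and 66.1 ± 11.5 CPM in 21% oxygen at CT4-8 (n = 4 each). The changes were -0.04 ± 0.19 (adjusted p = 0.94) and 0.47 ± 0.18 (0.14), the second passing without 6% library C at CT4-8 (0.63, adjusted p = 0.039). WT livers had 52.8, 45.8, 96.9 and 115 CPM in 6% oxygen, against 96.8, 84.6, 139 and 70.8 CPM in 21% oxygen, at CT16-20 (-0.34 ± 0.35, adjusted p = 0.61). At CT4-8, WT livers had 106, 71.1, 106 and 95.9 CPM in 6% oxygen, against 73.2, 55.5, 18.1 and 60.2 CPM in 21% oxygen (0.88 ± 0.36, adjusted p = 0.13). WT library C in air at CT4-8 was the lowest of its group in Nr0b2 and the highest in Cyp7a1.

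Nr1h4 (ENSMUSG00000047638, chr10:89454234-89533585, minus strand), which encodes FXR, fell in LD livers at ZT4-8. It had 132, 139, 125 and 133 CPM in 6% oxygen, against 185, 175, 156 and 199 CPM in 21% oxygen. The groups did not overlap, and the fall was -0.44 ± 0.13 (adjusted p = 0.042). The call was lost in 12 of 16 leave-outs (adjusted p 0.052 to 0.11), namely without any 6% library, without 21% library A, B or D, or without ZT16-20 library A or C in 6% or A, B or D in 21% oxygen. With no low-count filter, or with the title letter as a block, the call was lost too (adjusted p up to 0.056). At ZT16-20 the change was -0.10 ± 0.13 (adjusted p = 0.64).

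In KO livers at CT16-20, Nr1h4 had 210, 235 and 188 CPM in 6% oxygen, against 162, 165, 146 and 148 CPM in 21% oxygen. These did not overlap either, but the other way round, and 0.45 ± 0.13 missed the threshold in edgeR (adjusted p = 0.053, 0.0057 in DESeq2, and 0.044 without CT4-8 library B in 6% oxygen). At CT4-8 the KO change was 0.12 ± 0.12 (adjusted p = 0.65). WT DD changes were -0.15 ± 0.20 at CT16-20 (adjusted p = 0.71) and -0.41 ± 0.20 at CT4-8 (0.20). Without the WT library that stood apart, the WT change at CT4-8 was -0.58 ± 0.15 (adjusted p = 0.014), and the KO minus WT difference at CT4-8, 0.52 ± 0.24 (adjusted p = 0.26), became 0.71 ± 0.19 (adjusted p = 0.047).

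Slc10a1 (ENSMUSG00000021135, chr12:80953183-80968705, minus strand), the sodium-dependent uptake transporter, had no oxygen change past the threshold when all libraries of a table were fitted in edgeR. In KO livers at CT16-20 it had 386, 352 and 428 CPM in 6% oxygen, against 292, 212, 256 and 276 CPM in 21% oxygen. The groups did not overlap, and 0.59 ± 0.17 missed the threshold (adjusted p = 0.056). It passed in DESeq2 (0.029), with only the libraries compared (0.036), and without CT4-8 library A or B in 6% oxygen (0.050 and 0.033). The other 5 oxygen changes ran from -0.34 to 0.16. In LD at ZT16-20, -0.34 ± 0.16 (adjusted p = 0.15) became -0.48 without 21% library C (0.031) and -0.49 without 6% library C (0.042). In air at CT16-20, KO livers had 261 ± 35 CPM and WT livers 408 ± 82 CPM on the joint scaling (SD, n = 4 each), without overlap. That difference of -0.65 ± 0.18 passed (adjusted p = 0.045). It was lost in 11 of 31 leave-outs (adjusted p 0.050 to 0.22): KO library B in 6% and B, C or D in 21% oxygen at CT16-20, KO library C in 6% oxygen at CT4-8, WT library C or D in 6% and A, C or D in 21% oxygen at CT16-20, and WT library D in 6% oxygen at CT4-8.

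Slco1a1 (ENSMUSG00000041698, chr6:141907282-141946962, minus strand), a sodium-independent organic anion transporter, fell in 3 of the 6 oxygen comparisons. In LD livers at ZT16-20 it had 190, 247, 184 and 155 CPM in 6% oxygen, against 279, 355, 321 and 344 CPM in 21% oxygen. All livers in 6% oxygen were below all in air, and the fall of -0.74 ± 0.14 (adjusted p = 0.00085) held with each library left out (-0.88 to -0.64). At ZT4-8 it had 199, 167, 193 and 214 CPM in 6% oxygen, against 317, 279, 214 and 267 CPM in 21% oxygen. The groups met at 214 CPM (6% library D and 21% library C). The fall was -0.48 ± 0.14 (adjusted p = 0.037), lost without 6% library A, B or C or 21% library A, B or D (adjusted p 0.055 to 0.14). With the title letter as a block it was lost too (adjusted p = 0.059).

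In WT DD livers at CT4-8 Slco1a1 had 168, 183, 185 and 195 CPM in 6% oxygen, against 302, 295, 203 and 286 CPM in 21% oxygen. Every liver in 6% oxygen was below every liver in air, and the fall was -0.57 ± 0.17 (adjusted p = 0.029). It was lost without any single 6% library or 21% library B or D (adjusted p 0.056 to 0.078), and with only the libraries compared (0.059). Without the library that stood apart it was -0.50 ± 0.15 (adjusted p = 0.035). At CT16-20 the WT change was -0.11 ± 0.17 (adjusted p = 0.75). KO livers gave 0.31 ± 0.43 at CT16-20 (adjusted p = 0.76) and -0.17 ± 0.40 at CT4-8 (0.88), with wide ranges, as in 6% oxygen at CT4-8 (63.5 to 231 CPM) and in air at CT16-20 (65.4 to 205 CPM). The KO minus WT difference of response at CT4-8 was 0.39 ± 0.41 (adjusted p = 0.70).

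Slco1b2 (ENSMUSG00000030236, chr6:141629518-141686646, plus strand), the liver organic anion transporter with the inverted repeat shown above, was below 0 in all 6 oxygen comparisons, with changes of -1.09 to -0.33, and passed in 2. In LD livers at ZT16-20 it had 10.9, 15.1, 10.2 and 9.61 CPM in 6% oxygen, against 29.6, 30.0, 7.17 and 32.6 CPM in 21% oxygen. Library C in air lay below all the livers in 6% oxygen, and the other 3 far above. The fall was -1.09 ± 0.35 (adjusted p = 0.038), and -1.42 without library C in air (adjusted p = 3.5e-05). It was lost without ZT16-20 library A, C or D in 6% or A, B or D in 21% oxygen, or ZT4-8 library B in 6% oxygen (adjusted p 0.050 to 0.10). With no low-count filter, or with only the libraries compared, it was lost too (adjusted p up to 0.11).

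At ZT4-8 Slco1b2 had 16.2, 16.5, 20.1 and 14.1 CPM in 6% oxygen, against 39.5, 33.1, 21.4 and 27.5 CPM in 21% oxygen. The groups did not overlap, but -0.87 ± 0.34 did not pass (adjusted p = 0.13). Without ZT16-20 library C in air, which is in the same fit, it passed (adjusted p = 0.0026), as it did with only the libraries compared (0.0091). In WT DD livers at CT4-8 it had 14.0, 24.5, 18.1 and 20.3 CPM in 6% oxygen, against 21.4, 39.9, 31.6 and 35.8 CPM in 21% oxygen. Library A in air lay within the range of the livers in 6% oxygen. The fall of -0.75 ± 0.23 passed (adjusted p = 0.039) and was -0.88 ± 0.21 without the library that stood apart (adjusted p = 0.0077). It was lost without 6% library A, C or D or 21% library B, C or D (adjusted p 0.062 to 0.12). With the title letter as a block, or with only the libraries compared, it was lost too (adjusted p up to 0.081). The other changes were -0.60 ± 0.24 in WT at CT16-20 (adjusted p = 0.13, no overlap), -0.33 ± 0.26 in KO at CT16-20 (0.56) and -0.66 ± 0.25 in KO at CT4-8 (0.13), which passed without 6% library B (-0.94, adjusted p = 0.022). The 6 comparisons use separate libraries.

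Abcb11 (ENSMUSG00000027048, chr2:69238282-69342616, minus strand) fell in KO livers at CT4-8. It had 196, 236, 255 and 230 CPM in 6% oxygen, against 455, 372, 463 and 402 CPM in 21% oxygen. The highest liver in 6% oxygen was below the lowest in air, and the fall was -0.88 ± 0.14 (adjusted p = 0.00066), past the threshold with each library left out (-0.94 to -0.82). At CT16-20 KO livers had 292, 230 and 206 CPM in 6% oxygen, against 375, 324, 369 and 297 CPM in 21% oxygen. These did not overlap, and -0.49 ± 0.16 missed the threshold in edgeR (adjusted p = 0.079, and 0.031 in DESeq2).

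In WT DD livers at CT4-8 Abcb11 had 393, 410, 430 and 438 CPM in 6% oxygen, against 203, 478, 422 and 475 CPM in 21% oxygen. Library A in air, the one that stood apart, was the low value, and the change was 0.08 ± 0.19 (adjusted p = 0.83) with it and -0.12 ± 0.11 (0.57) without it. The oxygen response in KO minus that in WT at CT4-8 was -0.98 ± 0.24 (adjusted p = 0.021), the only call among the 10 genes where 2.42% of 9011 genes passed. Without the WT library that stood apart it was -0.76 ± 0.17 (adjusted p = 0.015). It was lost without KO library A in either gas at CT4-8 (adjusted p 0.052 and 0.059), and with only the libraries compared. At CT16-20 WT livers had 349, 314, 302 and 290 CPM in 6% oxygen, against 385, 377, 432 and 399 CPM in 21% oxygen. All 4 livers in 6% oxygen were below the 4 in air, yet -0.34 ± 0.19 did not pass (adjusted p = 0.28, and 0.020 without the library that stood apart, which is in the same fit).

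In LD livers Abcb11 fell at ZT16-20, with 217, 260, 255 and 220 CPM in 6% oxygen, against 274, 288, 384 and 319 CPM in 21% oxygen. The groups did not overlap, and the fall was -0.41 ± 0.12 (adjusted p = 0.023). It was lost without 6% library A or D or 21% library C (adjusted p 0.067 to 0.090). At ZT4-8 it had 380, 459, 463 and 458 CPM in 6% oxygen, against 356, 357, 432 and 376 CPM in 21% oxygen, at 0.21 ± 0.12 (adjusted p = 0.33). The difference between the times was -0.62 ± 0.18 and missed the threshold in edgeR (adjusted p = 0.068), not in DESeq2 (0.022) or without ZT4-8 library C in air (0.049). An antisense gene and a pseudogene lie within Abcb11, and the strand setting of the counting is not given in the sources used here, so their reads could not be told apart.

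Time of day and genotype in air gave few calls. Beside Nr0b2 in LD and Cyp7a1 in KO livers, 0 of the 10 genes passed in WT DD livers (CT16-20 against CT4-8) in edgeR or DESeq2, with 3 at an unadjusted p under 0.05, where 3.66% of 8507 genes passed. For KO against WT livers in air at CT4-8, 0 of the 10 passed in edgeR or DESeq2 (3 at an unadjusted p under 0.05), where 4.51% of 9011 genes passed. Without WT library C, Cyp7a1 was higher in KO livers there, at 1.57 (adjusted p = 0.016) in place of 0.77 (adjusted p = 0.34). All 10 genes had lower fitted levels in KO than in WT livers in air at CT16-20, with a median of -0.28 against 0.01 over all genes, and 2 of them, Cyp7a1 and Slc10a1, passed, where 2.00% of 9011 genes did. Slco1a1 passed as well without KO library D in air (-1.29, adjusted p = 0.015, in place of -0.88 and 0.13).

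The repressor and its targets were set against each other within groups. Over 47 libraries, after group means were removed on the log2(CPM + 1) scale, Nr0b2 and Cyp7a1 gave r = -0.38 (permutation within groups, two-sided, p = 0.079, adjusted 0.16 over 2 relations) and rho = -0.18 (permutation p = 0.29, adjusted 0.53). Without the 2 libraries farthest from the median of Nr0b2, r was -0.17. Within tables, r was -0.06 in LD (16 libraries), 0.27 in KO (15) and -0.74 in WT DD livers (16). Nr0b2 and Cyp8b1 gave r = 0.06 (permutation p = 0.66, adjusted 0.66) and rho = 0.10 (permutation p = 0.53, adjusted 0.53), with r = 0.11 without the 2 farthest. Neither relation passed.

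**Figure D3:**
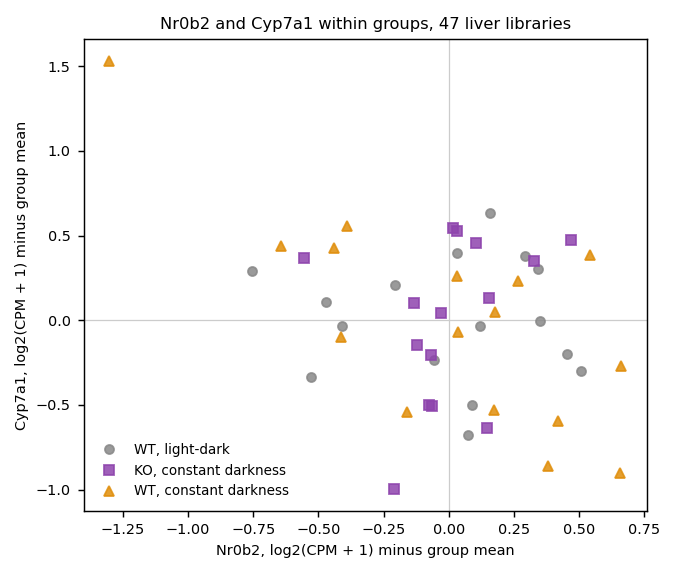
Deviation of Cyp7a1 (y) from its group mean against that of Nr0b2 (x), log2(CPM + 1), for 47 liver libraries marked by arm. The point at the upper left is WT library C in air at CT4-8, and r moved to -0.17 from -0.38 when the 2 libraries farthest in Nr0b2 were left out.

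The pattern of group means was also compared with that of other genes, over 12 groups centred within each table and 5509 genes of at least 10 CPM on average in each table. The genes most like Cyp7a1 were Aldh3a2 (r = 0.90), Adck1 (0.87) and Zc3h14 (0.87). Those most like Nr0b2 were Actn4 (0.95), Glud1 (0.93) and Nt5dc3 (0.90). With 12 points and 5509 genes these values only rank likeness.

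Other genes of the pathway were counted in 8 lists. Of all genes, 20.3% passed at ZT16-20 and 9.64% at ZT4-8 in LD livers. In KO livers 4.51% passed at CT16-20 and 5.59% at CT4-8. In WT DD livers 9.83% passed at CT16-20 and 11.8% at CT4-8. The counts below are to be read beside these shares, and whether any list differed from them was not tested. Of 19 nuclear receptors and regulators (16 or 17 tested), 5 fell at ZT16-20 and 4 at ZT4-8 in LD, 2 fell and 1 rose at CT16-20 and 3 fell and 1 rose at CT4-8 in KO, and 3 fell at CT16-20 and 5 at CT4-8 in WT DD livers. Foxa2, a pioneer factor of hepatocyte and bile acid genes, fell in all 6 comparisons (-3.03 to -1.65), and Foxa1 in 5 (-2.90 to -1.06 over all 6). Nr1i3, which encodes the bile acid and xenobiotic sensor CAR, rose in KO livers at CT16-20 (0.64 ± 0.18, adjusted p = 0.048) and at CT4-8 (0.93 ± 0.17, adjusted p = 0.0022), and fell in WT livers at CT4-8 (-0.89 ± 0.22, adjusted p = 0.010). The KO minus WT difference at CT4-8 was 1.81 ± 0.29 (adjusted p = 0.00053). In air at CT16-20, Nr5a2, which encodes LRH-1, was higher in KO than in WT livers, at 18.7 ± 1.9 against 7.34 ± 1.74 CPM (1.36 ± 0.26, adjusted p = 0.0022; SD, n = 4 each).

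Of 13 other synthesis enzymes (10 or 11 tested), 4 fell at ZT16-20 and 1 rose at ZT4-8 in LD, 1 fell at each time in WT DD livers, and none passed in KO livers. Hsd3b7, which acts after Cyp7a1, was the gene that rose at ZT4-8 (0.62 ± 0.12, adjusted p = 0.0014), and it fell at ZT16-20 (-0.38 ± 0.12, adjusted p = 0.029), with a difference of -1.0 ± 0.17 (adjusted p = 0.0015). Akr1d1, the bile acid 5-beta-reductase, was higher in LD air at ZT16-20 than at ZT4-8 (172 ± 27 against 81.1 ± 3.7 CPM; 1.09 ± 0.17, adjusted p = 0.00035). Of 7 conjugation genes, 1 fell at ZT16-20 in LD (Sult2a8, -1.75 ± 0.38, adjusted p = 0.0030) and 1 at CT4-8 in WT DD livers (Acot8, -0.73 ± 0.21, adjusted p = 0.026).

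Of 8 canalicular export genes, 2 rose at ZT16-20 in LD, 2 at CT16-20 and 1 at CT4-8 in WT DD livers, and none passed in KO livers or at ZT4-8. Abcg5, a subunit of the biliary cholesterol transporter, rose in each of those 3 (0.75 to 1.37). Of 8 genes of sinusoidal transport (5 tested), 2 fell, both in WT DD livers at CT4-8, and none passed elsewhere. Of 9 genes of FGF and bile acid receptor signalling (5 tested), 1 fell at ZT16-20 in LD, and 1 rose and 2 fell at ZT4-8. The one that rose was Klb, the co-receptor for FGF15 (0.86 ± 0.19, adjusted p = 0.0048).

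Of 10 clock-driven factors (8 or 9 tested), 4 rose at ZT16-20, and 3 rose and 3 fell at ZT4-8 in LD, 2 rose at each time in KO livers, and 4 rose at CT16-20, and 2 rose and 2 fell at CT4-8 in WT DD livers. Nfil3 and Bhlhe40, repressors acting on clock-controlled genes, rose in all 6. Dbp, an activator known to act on Cyp7a1, rose at ZT16-20 (1.20 ± 0.38, adjusted p = 0.040) and fell at ZT4-8 (-2.74 ± 0.35, adjusted p = 0.00011). It also passed in WT DD livers, higher at CT16-20 and lower at CT4-8, and at neither time in KO livers (-2.74 to 2.05 over all 6). Of 14 genes of cholesterol supply and disposal (13 tested), 6 rose and 1 fell at ZT16-20 and 3 rose at ZT4-8 in LD, 1 rose at CT16-20, and 2 rose and 1 fell at CT4-8 in KO, and 4 rose and 2 fell at CT16-20 and 3 rose at CT4-8 in WT DD livers. Abca1, a cholesterol exporter gene, rose in 4.

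**Figure D4:**
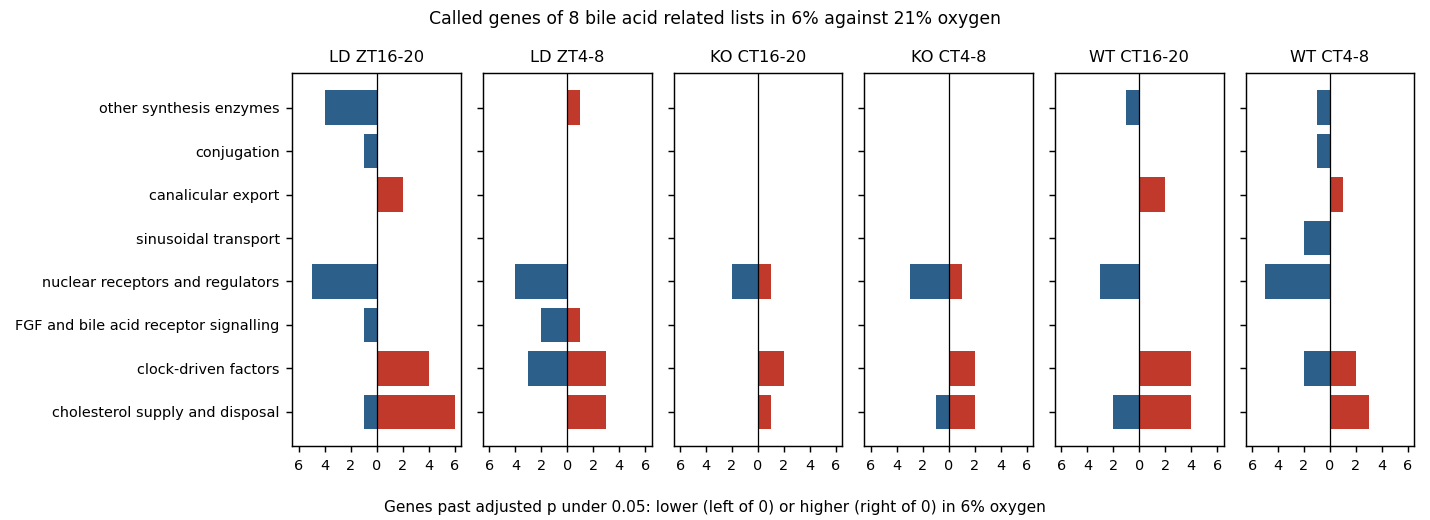
Number of genes past the adjusted p threshold in 8 lists (rows) for 6% against 21% oxygen in 6 comparisons (panels), lower to the left and higher to the right of 0. In LD at ZT16-20, 6 cholesterol genes were higher and 5 nuclear receptors and regulators lower. Of all genes, 9.98% were higher and 10.3% lower there.

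Markers of other liver cells were checked in the same comparisons. Of those tested, Spp1 (cholangiocyte, where 2 of 6 were tested) was higher at ZT4-8 in 6% oxygen. Kdr (endothelial) was higher and Vsig4 (Kupffer) lower at ZT16-20 in 6% oxygen, and Col3a1 (stellate) was lower in KO livers at CT4-8. None of the hepatocyte markers passed. The summed level of all 6 cholangiocyte markers at ZT4-8 was 80.9 to 218 CPM in 6% and 47.8 to 89.9 CPM in 21% oxygen, where Cyp7a1, Nr0b2, Cyp8b1, Nr1h4 and Slco1a1 passed. For neutrophil markers (S100a8, S100a9, Ngp, Ly6g and Retnlg), the summed level did not overlap between the gases at CT4-8. In KO livers it was 14.2 to 74.9 CPM in 6% and 3.17 to 10.9 CPM in 21% oxygen. There 4 of 5 were listed (Ly6g not), and Cyp7a1 and Abcb11 fell. In WT livers the sum was 3.31 to 12.3 CPM in 6% and 0 to 1.81 CPM in 21% oxygen. There 2 of 5 were listed, and Slco1a1 and Slco1b2 fell. In every other comparison the neutrophil sums overlapped. In KO livers at CT16-20 they were 7.22 to 17.5 CPM in 6% and 7.38 to 92.5 CPM in 21% oxygen. None of the 3 neutrophil markers tested in KO livers passed, and none reached the filter in WT livers. Of 5 blood markers only Alas2 was listed. In WT DD livers at CT16-20 it had 200 to 208 CPM in 6% and 122 to 190 CPM in 21% oxygen, without overlap, and did not pass. The part of these cells in the results was not tested.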

How the data were processed

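RNA was measured in 47 liver libraries. The deposited tables hold whole-number read counts per gene, made by the authors with bcl2fastq, cutadapt, STAR and HTSeq on mm10, per the submitters' processing notes. No source used here states their versions or whether counting used strand. In each of the 3 tables every listed gene reached at least 6 counts in some library. Counts were fitted with edgeR 4.0.16 (limma 3.58.1, R 4.3.3): TMM scaling, filterByExpr (minimum count 10, minimum total 15), and glmQLFit and glmQLFTest with 1 mean per group and all groups of a table in 1 fit. KO and WT DD tables were joined on genes listed in both. Adjusted p-values are Benjamini-Hochberg, with a threshold of 0.05. Alternatives were DESeq2 1.42.0, RLE scaling, no filter, the title letter as a block, only the libraries compared, and leaving out each library. Correlations used permutation tests (Python 3.11.15, scipy 1.17.1). The fits were tested on simulated data. The 69 pairs of libraries within groups differed beyond counting noise (chi-square per degree of freedom 3.50 to 36.7). Gene positions are from GENCODE (mm10), promoters from RefSeq. All 10 genes are named; other genes are up to 4 per list with the smallest p among those past the threshold in a comparison, or past it in at least 4 of 6 oxygen comparisons. The 10 genes and the lists were chosen with earlier results of these data known.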

Additional observations from a re-analysis of the deposited data

Results flagged for a closer look

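Each gene was checked in each group of 4 libraries, which gave 110 sets that share libraries. In 6 of these 110 sets, 1 library lay far from the other 3 by Dixon's test. Chance gives about 1 in 20 such sets. Abcb11 had 380 CPM in LD library A at ZT4-8 in 6% oxygen, against 458 to 463 CPM in the others. Slco1b2 had 7.17 CPM in LD library C at ZT16-20 in 21% oxygen, against 29.6 to 32.6 CPM. Cyp8b1 had 349 CPM in WT DD library A at CT16-20 in 21% oxygen, against 524 to 558 CPM. Slco1a1 had 203 CPM in WT DD library C at CT4-8 in 21% oxygen, against 286 to 302 CPM. Slco1b2 had 33.2 CPM in WT DD library A at CT16-20 in 21% oxygen, against 20.0 to 20.3 CPM. Cyp7b1 had 138 CPM in KO library D at CT16-20 in 21% oxygen, against 10.6 to 29.9 CPM. The causes were not tested.

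In 3 cases the oxygen response differed between groups by a test of the difference (edgeR, adjusted p). The log2 response of Nr0b2 in LD differed by -1.93 between ZT16-20 and ZT4-8 (adjusted p = 0.0085). That of Cyp7a1 in KO livers differed by 4.26 between CT16-20 and CT4-8 (adjusted p = 0.0043). That of Abcb11 at CT4-8 differed by -0.98 between KO and WT livers (adjusted p = 0.021), a call lost with only the libraries compared.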

How the results depend on the processing

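Of 769 values of single genes under other settings, 740 kept their sign and side of the threshold, 11 lost a call, 12 gained one and 6 uncalled values changed sign. Of 3120 values with 1 library left out, 2956 kept both, 75 lost a call, 22 gained one and 67 uncalled values changed sign. No call reversed. The number of the 10 genes past the threshold moved by over 1.5 times as follows, and the causes were not tested. The letters did not pair the libraries (median correlation of same-letter deviations -0.11 in KO, -0.03 in LD and -0.02 in WT DD livers). With the replicate block, the count was 3 in place of 5 in LD at ZT4-8, 1 in place of 2 in WT DD livers at CT4-8, and 1 in place of 2 for KO against WT in air at CT16-20, and Cyp7a1 passed at ZT16-20 (adjusted p = 0.037). With only the libraries compared, it was 0 in place of 2 in WT DD livers at CT4-8, 1 in place of 2 in KO at CT4-8, 2 in place of 1 in KO at CT16-20, 0 in place of 1 for the KO minus WT response at CT4-8, and 1 in place of 0 for KO against WT in air at CT4-8. DESeq2 gave 4 in place of 1 in KO at CT16-20, 3 in place of 1 for the LD response difference, and 1 in place of 0 for the KO minus WT response at CT16-20. Over all genes DESeq2 also passed more in the last of these, as given above, so these counts do not single out the 10 genes. With 1 library left out, counts ran from 1 to 4 at ZT16-20 and 2 to 6 at ZT4-8 in LD, 1 to 3 at CT16-20 and 1 to 2 at CT4-8 in KO, and 0 to 1 at CT16-20 and 0 to 3 at CT4-8 in WT DD livers. Smaller moves were 4 (block, DESeq2) and 2 (no filter) in place of 3 at ZT16-20, and 4 (no filter) and 6 (only the libraries compared) in place of 5 at ZT4-8 in LD; RLE scaling moved no count. Response differences ran from 1 to 2 in LD, 1 to 1 in KO and 0 to 0 in WT, and the KO minus WT response from 0 to 0 at CT16-20 and 0 to 2 at CT4-8. Time in air ran from 1 to 1 in LD, 0 to 1 in KO and 0 to 0 in WT, and KO against WT in air from 0 to 2 at CT16-20 and 0 to 1 at CT4-8. Over all genes, leave-outs gave 1494 to 1943 genes in place of 1915 at ZT16-20 and 651 to 1014 in place of 911 at ZT4-8 in LD, 167 to 499 in place of 384 at CT16-20 and 287 to 556 in place of 476 at CT4-8 in KO, and 585 to 1358 in place of 836 at CT16-20 and 615 to 1033 in place of 1001 at CT4-8 in WT DD livers. With only the libraries compared, the last was 526, and KO against WT in air at CT4-8 was 96 in place of 406. With 1.44 to 2.02 M counts, the KO libraries in air at CT16-20 held 9 to 19 reads of Cyp7a1, which limits its fold.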
